A study of Mus musculus with 3 samples.

Results

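The 41 genes described here are interferon-stimulated genes, a set of antiviral and immune genes whose transcription is switched on by interferons. They were taken by name from a list, by a rule that uses no measured value, and all 41 were found among the 37646 genes of each count table. Their RNA was measured in 3 libraries of mouse lymphoma cells, named here tumours 1, 2 and 3, which form a single group. The mice were of strain C57BL/6 and carried the pBIC2 genotype, which gives lymphomas that resemble ABC-DLBCL, the form of diffuse large B cell lymphoma with traits of activated B cells. Every tumour shares the same alleles: floxed p53 (Trp53), floxed Blimp1 (Prdm1, a driver of plasma cell differentiation), an IKK2 mutant that is always active and turns on NF-κB, placed behind a floxed stop, Cre recombinase from the Cγ1 locus, and a human BCL2 transgene under the Eµ enhancer. Cγ1-Cre acts in B cells that transcribe the Cγ1 constant region, so recombination takes place mainly in activated B cells. B220+GFP+ cells were sorted from spleens, and no agent or age is given for the lymphoma mice. Control germinal centre B cells of immunised mice belong to the study's design and were not analysed here, so each value is a level in lymphoma cells and not a response to a treatment. Whether each library is from a mouse of its own is not stated, and the spread between libraries may be technical in part.

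Type I interferons (the IFN-α family and IFN-β) signal through the receptor IFNAR and the kinases JAK1 and TYK2 to a transcription factor complex with STAT2 and IRF9, which binds the interferon-stimulated response element (ISRE) in the promoters of these genes. Interferon-γ signals through IFNGR, JAK1 and JAK2 to promoters with the gamma-activated site (GAS) and drives, among others, the guanylate-binding proteins and immunity-related GTPases. Many of these genes also have a basal level in lymphocytes, and transcription factors of the IRF and NF-κB families can act on some of them directly.

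The promoters of 5 members on which the results below turn are printed here: Isg15, Ifit1 and Gbp2, which were highest in tumour 2, and Ifitm3 and Oasl1, which were highest in tumour 1. Each runs from 250 bases before to 50 bases after the start of the gene, 5′ to 3′ on the gene's strand, from RefSeq on GRCm38.p6 (mm10). Capitals mark every match to the ISRE core GAAANNGAA on either strand. The regions are chr4:156200769-156201068 on the minus strand for Isg15, chr19:34640639-34640938 on the plus strand for Ifit1, chr3:142620413-142620712 on the plus strand for Gbp2, chr7:141010695-141010994 on the minus strand for Ifitm3 and chr5:114922990-114923289 on the plus strand for Oasl1.
Isg15: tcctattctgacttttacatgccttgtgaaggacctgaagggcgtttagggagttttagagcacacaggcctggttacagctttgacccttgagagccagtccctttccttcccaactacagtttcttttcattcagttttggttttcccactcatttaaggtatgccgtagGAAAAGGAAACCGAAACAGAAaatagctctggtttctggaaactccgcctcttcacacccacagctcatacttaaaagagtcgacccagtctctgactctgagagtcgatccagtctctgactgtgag
Ifit1: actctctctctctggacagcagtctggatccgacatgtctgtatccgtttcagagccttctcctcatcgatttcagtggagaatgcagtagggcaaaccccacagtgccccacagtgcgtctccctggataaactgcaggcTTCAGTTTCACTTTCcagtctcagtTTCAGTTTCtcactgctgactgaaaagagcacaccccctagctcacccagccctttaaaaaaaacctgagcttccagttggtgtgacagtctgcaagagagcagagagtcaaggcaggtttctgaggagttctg
Gbp2: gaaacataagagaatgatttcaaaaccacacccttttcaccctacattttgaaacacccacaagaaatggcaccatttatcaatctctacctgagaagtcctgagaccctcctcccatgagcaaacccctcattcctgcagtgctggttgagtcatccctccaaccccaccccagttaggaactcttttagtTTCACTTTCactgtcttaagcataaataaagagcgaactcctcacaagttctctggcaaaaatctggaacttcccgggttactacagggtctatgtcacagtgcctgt
Ifitm3: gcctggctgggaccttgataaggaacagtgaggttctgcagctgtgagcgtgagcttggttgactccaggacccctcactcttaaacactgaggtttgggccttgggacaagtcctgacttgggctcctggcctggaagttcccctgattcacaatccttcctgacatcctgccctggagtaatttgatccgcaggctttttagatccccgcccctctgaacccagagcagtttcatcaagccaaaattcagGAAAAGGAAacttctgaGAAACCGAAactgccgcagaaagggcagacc
Oasl1: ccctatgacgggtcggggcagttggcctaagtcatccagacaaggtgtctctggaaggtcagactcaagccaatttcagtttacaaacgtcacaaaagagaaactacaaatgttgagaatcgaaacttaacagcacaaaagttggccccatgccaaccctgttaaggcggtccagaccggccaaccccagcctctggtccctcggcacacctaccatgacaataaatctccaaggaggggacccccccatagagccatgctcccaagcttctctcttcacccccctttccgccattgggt

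Among the 30 members with a promoter in the RefSeq table, 20 held the ISRE core (66.7%), against 9.76% of all 27025 genes there. Counted by promoter, it was in 21 of 36 (58.3%), against 8.56% of all 32851 promoters of the same length. Isg15, Ifit1 and Ifit3 each held 3 matches, and 12 members held at least 2. In Isg15 the matches began 78, 72 and 66 bases upstream of the start site and overlapped, and in Ifit1 they lay 109, 103 and 84 bases upstream. Gbp2 held 1 match 58 bases upstream. Those of Ifitm3 lay 2 and 19 bases downstream, and Oasl1 held none in this window. Of 35 matches in all member promoters, 28 were upstream of the start site and 7 downstream, and 33 lay within 150 bases of it. The GAS letters TTCNNNGAA, which can overlap an ISRE core, were found in 8 of the 30 members (26.7%), against 9.55% of all genes. Counted by promoter, the share was 22.2%, against 8.30% of all promoters. Both motifs were searched on both strands. A match describes letters in a window and is not a binding site, and these shares carry no test. Usp18, Parp14, Dhx58, Oas2, Parp9, Ly6e, Mx1, Ifi27, Mx2, Zbp1 and Rtp4 had no promoter in the table.

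**Figure D1:**
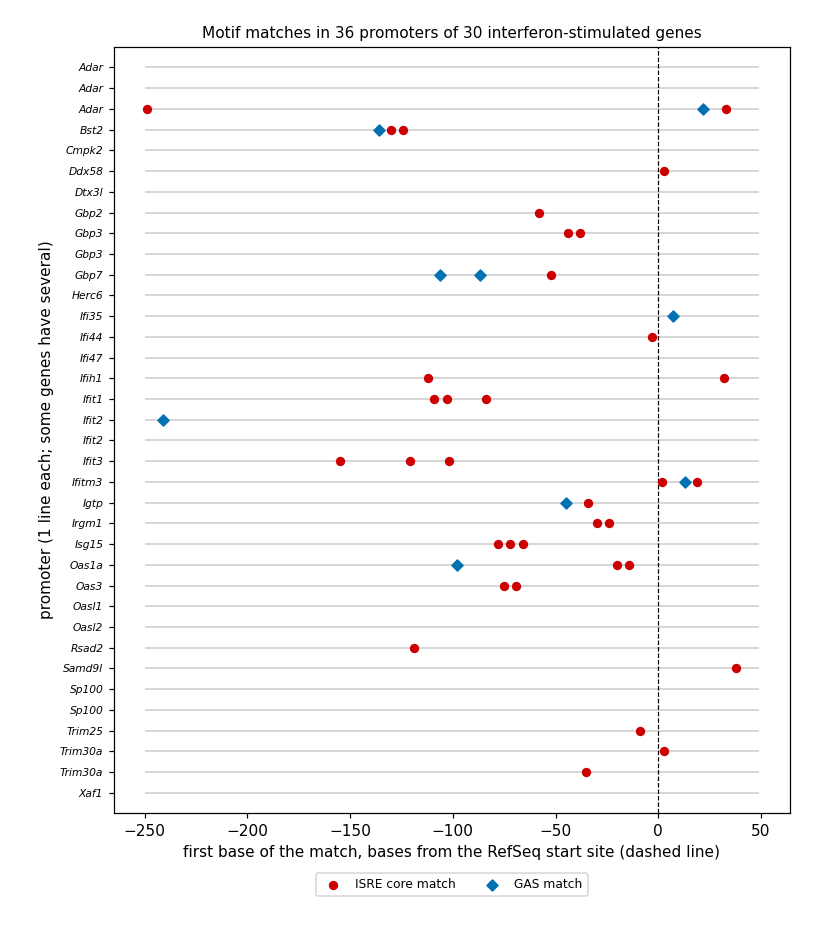
First base of each ISRE core match (circles) and GAS match (diamonds) in 36 promoters of 30 members (y axis, 1 line per promoter), in bases from the RefSeq start site (x axis). Of 35 ISRE core matches, 28 lie upstream, and Ifit1, Ifit3 and Isg15 have 3 each.

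The libraries held 15576975, 16477997 and 17014022 gene counts in tumours 1, 2 and 3, and levels are given in CPM, counts scaled to a common library size after TMM normalisation. All 9 pan B cell markers reached 10 CPM in each tumour, as in B lineage cells. Genes of other cell types were also counted, and they differed between tumours. T cell markers summed to 94.7, 78.2 and 926 CPM, with 8 of 10 highest in tumour 3, and Cd3e had no count in tumour 1. Without Cd5, which some B cells also make and which was at 82.0 CPM in tumour 1, the sums were 12.7, 44.3 and 910 CPM. Macrophage and monocyte markers summed to 36.0, 406 and 180 CPM, with 9 of 10 highest in tumour 2. Without Cd68, which made up most of them, they were 11.2, 81.8 and 17.8 CPM. NK cell markers summed to 2.25, 5.21 and 52.5 CPM, and neutrophil markers to 0.199, 17.0 and 42.9 CPM. Markers of plasmacytoid dendritic cells, which can make large amounts of IFN-α, summed to 6.69, 1.78 and 6.09 CPM, and Siglech among them had 1, 5 and 0 counts. The part of these cells in the members' values was not tested. In such bulk samples fewer cells of a type and less RNA per cell cannot be told apart.

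The members were broadly transcribed in the lymphoma cells, over a very wide range of levels. At 1 CPM or more in every tumour stood 40 of 41 members. The exception was Ifi44, an interferon-induced cytoplasmic protein, with 2, 2 and 0 counts in tumours 1, 2 and 3, at or below the limit of 3 counts (0.199, 0.184 and 0.169 CPM) that a count of 0 allows. It also failed the filter on low counts, so that 40 members enter the comparisons with the 11273 genes that passed. All 40 reached 1 CPM in every tumour, as did 10543 of the 11273. Of these 40, 28 reached 10 CPM in each tumour (70.0%), close to the 68.5% of all genes that passed. The median of these 40 members was 68.7, 70.2 and 59.2 CPM in tumours 1, 2 and 3, and that of all genes 35.6, 34.5 and 34.7 CPM, with no correction for gene length. With Ifi44 included the medians over 41 members were 64.6, 58.0 and 42.6 CPM, so the order of tumours 1 and 2 rests on 1 gene. A mean above 100 CPM was found for 18 members and a mean under 10 CPM for 7. Ly6e alone made up 51.0%, 44.2% and 41.3% of the members' summed CPM.

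**Figure D2:**
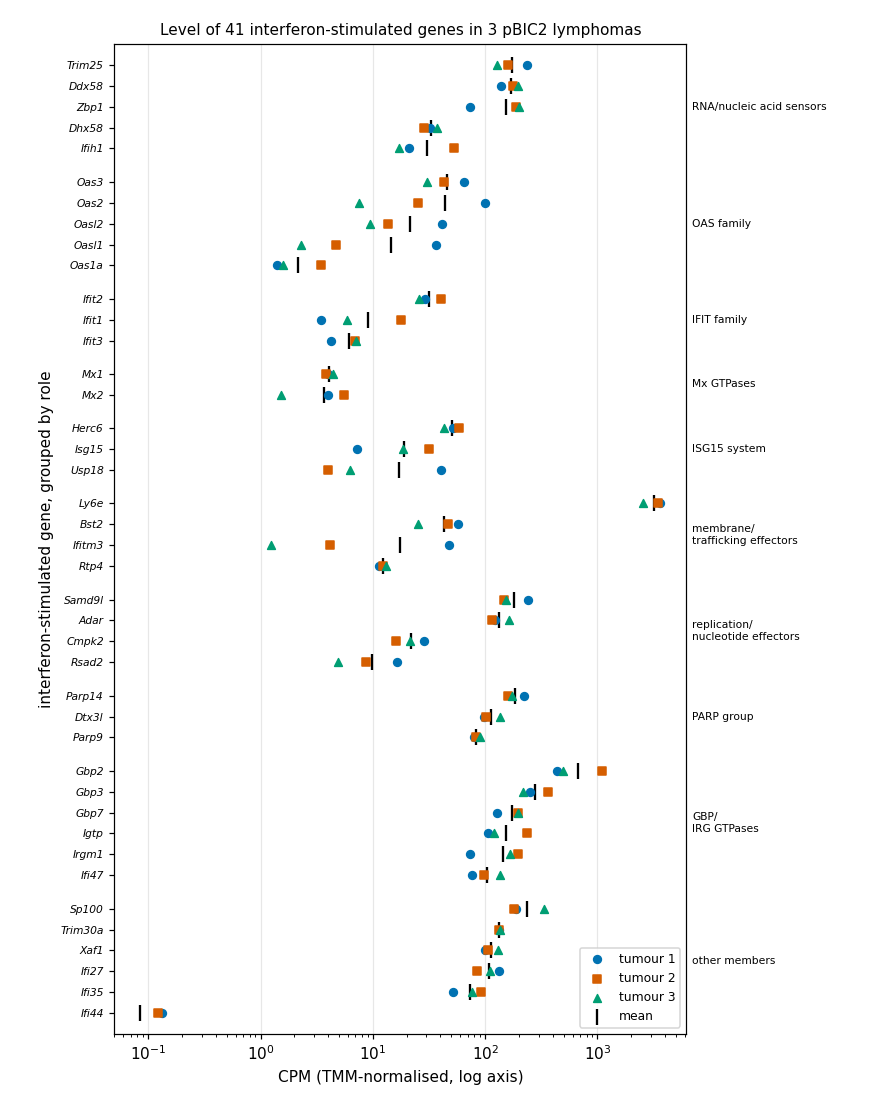
Level of each member in each tumour (x axis, CPM on a log scale), with members grouped by role (y axis) and 1 point per tumour. Ly6e stands at 2560 CPM or more in every tumour, Ifi44 is lowest and has no point for tumour 3 (0 counts), and Ifitm3, Oasl1, Oas2 and Usp18 show the widest gaps, with tumour 1 highest.

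The sensors of viral nucleic acid all reached 10 CPM in each tumour, as did 68.5% of all genes that passed the filter. Trim25, the ubiquitin ligase that activates RIG-I (ENSMUSG00000000275.16, chromosome 11, 88999376 to 89020293 of mm10, as are all gene positions below, from GENCODE M21), was at 236, 158 and 127 CPM in tumours 1, 2 and 3 (174 ± 56.4, SD, n = 3). Ddx58, which encodes the RNA sensor RIG-I, was at 138, 177 and 195 CPM (170 ± 29.0). Thus tumour 1 was highest for the ligase and lowest for the sensor. Ifih1, which encodes the long double-stranded RNA sensor MDA5, was at 21.1, 53.3 and 17.2 CPM (30.5 ± 19.8), and in tumour 2 it was 2.52-fold (95% counting interval 2.21 to 2.87) as high as in tumour 1. Without tumour 2 the mean of Ifih1 was 19.2 CPM. Zbp1, a sensor of Z-form nucleic acids that can trigger necroptosis, was lowest in tumour 1 (72.9 CPM) and close in tumours 2 (187 CPM) and 3 (200 CPM). Dhx58, the regulator LGP2, lay between 28.3 and 37.3 CPM. Intervals of folds are exact and cover counting error only, and a fold between tumours compares 1 library with 1 library and has no test.

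The OAS family makes or resembles enzymes that make 2′-5′ oligoadenylates, the activators of RNase L, and 4 of its 5 members were highest in tumour 1 (35.8% of all genes). Oas3 (ENSMUSG00000032661.9, chromosome 5, 120753098 to 120777661) was at 64.5, 42.9 and 30.2 CPM in tumours 1, 2 and 3 (45.9 ± 17.4). Oas2 was at 99.7, 25.4 and 7.50 CPM (44.2 ± 48.9), so that tumour 1 was 13.3-fold (11.1 to 16.0) above tumour 3. Oasl1, an OAS-like protein known in mice to restrain translation of Irf7, was at 36.7, 4.66 and 2.31 CPM (14.6 ± 19.2), a 15.9-fold range (11.6 to 22.4). All 3 genes were highest in tumour 1 and lowest in tumour 3. So was Oasl2, the neighbour of Oasl1, at 41.4 and 9.41 CPM, while Oas1a was between 1.39 and 3.43 CPM and highest in tumour 2. Without tumour 1 the mean of Oas2 was 16.5 CPM and that of Oasl1 3.49 CPM, so the means of both rest largely on tumour 1. The values of close copies such as Oas1a and Oas1g are uncertain, since reads may be split between them.

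The IFIT proteins bind viral RNA, and tumour 2 was highest for Ifit1 and Ifit2 (30.8% of all genes) but not for Ifit3. Ifit2 (ENSMUSG00000045932.12, chromosome 19, 34550694 to 34576419) was at 29.1, 40.3 and 25.7 CPM in tumours 1, 2 and 3 (31.7 ± 7.66). Ifit1, which recognises RNA with an unmethylated cap, was at 3.45, 17.8 and 5.92 CPM (9.07 ± 7.70), so that tumour 2 was 5.18-fold (3.84 to 7.09) above tumour 1. Ifit3 was between 4.24 and 7.04 CPM, and reads can be shared with its near copy Ifit3b. Without tumour 2 the mean of Ifit1 was 4.68 CPM.

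Of the Mx dynamin-like GTPases, Mx1 was at 3.98, 3.80 and 4.45 CPM in tumours 1, 2 and 3 (4.08 ± 0.337) and Mx2 at 3.98, 5.58 and 1.52 CPM (3.69 ± 2.04). The counts of Mx1 were 60, 62 and 79, and the intervals of its folds all include 1. As background, C57BL/6 mice carry a defective Mx1 allele with an internal deletion, which a count over the whole gene does not show. For Mx2, tumour 2 was 3.67-fold (2.36 to 5.86) above tumour 3.

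Within the ISG15 system, the modifier and its protease had different patterns. Isg15, the ubiquitin-like modifier (ENSMUSG00000035692.7, chromosome 4, 156199424 to 156200818), was at 7.16, 31.3 and 18.4 CPM in tumours 1, 2 and 3 (18.9 ± 12.1). Usp18, which removes ISG15 from proteins and also blocks signalling at IFNAR, was at 40.7, 3.98 and 6.31 CPM (17.0 ± 20.6). Isg15 was lowest where Usp18 was highest, in tumour 1. Tumour 2 exceeded tumour 1 by 4.38-fold (3.55 to 5.44) for Isg15, and tumour 1 exceeded tumour 2 by 10.2-fold (7.90 to 13.4) for Usp18. Herc6, the main mouse ligase for ISG15, was steadier at 52.2, 58.0 and 42.6 CPM (50.9 ± 7.77). Of the other conjugation enzymes, Uba7 (E1) was at 306, 277 and 208 CPM and Ube2l6 (E2) at 15.6, 11.4 and 4.34 CPM. Without tumour 1 the mean of Usp18 was 5.15 CPM, and without tumour 2 the mean of Isg15 was 12.8 CPM.

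The membrane effectors held both the most abundant and the most variable member. Ly6e, a GPI-anchored protein that restricts coronavirus entry (ENSMUSG00000022587.14, chromosome 15, 74955051 to 74959905), was at 3636, 3427 and 2560 CPM in tumours 1, 2 and 3 (3208 ± 570). Bst2, the tetherin that holds budding virions at the surface, was at 57.5, 46.6 and 25.0 CPM (43.1 ± 16.6). Ifitm3, which blocks fusion of virions in endosomes (ENSMUSG00000025492.6, chromosome 7, 141009586 to 141010770), was at 47.2, 4.17 and 1.24 CPM (17.6 ± 25.8). All 3 were highest in tumour 1 (35.8% of all genes) and lowest in tumour 3. The ratio was 1.42-fold (1.40 to 1.44) for Ly6e and 38.1-fold (25.0 to 61.2) for Ifitm3. The mean of Ifitm3 was 2.70 CPM without tumour 1. The related Ifitm1 and Ifitm2, which are no members and lie on the same chromosome, were also highest in tumour 1: Ifitm2 had 1047, 5 and 10 counts and Ifitm1 102, 1 and 9. These related genes can share reads. Rtp4, a chaperone of G protein-coupled receptors, lay between 11.4 CPM in tumour 1 and 13.1 CPM in tumour 3, the reverse order. The intervals of its folds all include 1.

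Of the 4 genes that act on replication and nucleotides, none was highest in tumour 2 (30.8% of all genes). Samd9l, a restriction factor and growth suppressor (ENSMUSG00000047735.14, chromosome 6, 3372257 to 3399572), was at 240, 146 and 152 CPM in tumours 1, 2 and 3 (180 ± 52.7). Adar, the adenosine deaminase that edits double-stranded RNA, was at 121, 115 and 164 CPM (133 ± 26.4). Rsad2, which encodes viperin, was at 16.2, 8.64 and 4.85 CPM (9.91 ± 5.80). Viperin and Cmpk2, a nucleotide kinase, are divergent neighbours 12751 bases apart on chromosome 12. On the log2 scale tumour 3 was lower than tumour 1 by a difference of -1.72 for Rsad2 and -0.41 for Cmpk2, so their ratio was not constant.

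The 3 members in the PARP group were fairly even across tumours. Parp14 was at 224, 160 and 173 CPM (186 ± 33.7) and Dtx3l, a ubiquitin ligase that works as a complex with PARP9, at 98.3, 102 and 134 CPM (112 ± 19.7) in tumours 1, 2 and 3. Parp9 lay between 78.7 and 89.8 CPM. None of the 3 genes reached a 2-fold difference between any pair of tumours, which 34.1% of all genes did. Outside the members, Parp10 lay between 79.9 and 126 CPM. Parp11 was at 105, 33.8 and 41.4 CPM and Parp12 at 1.06, 11.2 and 3.38 CPM, so evenness was not shared by all PARP genes. Dtx3l and Parp9 overlap by 458 exon bases on opposite strands, and reads there cannot be assigned to either gene, as the strand setting of the counting is unknown here.

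The guanylate-binding proteins and immunity-related GTPases, which attack the membranes of intracellular pathogens and are classical interferon-γ targets, were highest in tumour 2 in 5 of 6 cases (30.8% of all genes). The group's median stood at 117, 218 and 181 CPM for tumours 1, 2 and 3. Gbp2 (ENSMUSG00000028270.12, chromosome 3, 142620602 to 142638008) was at 438, 1091 and 494 CPM (674 ± 362), and Gbp3 at 248, 360 and 218 CPM (276 ± 74.9). Irgm1, a regulator of the other GTPases and of autophagy, was at 73.2, 195 and 167 CPM (145 ± 63.7). In tumour 2, Gbp2 was 2.49-fold (2.42 to 2.56) and Irgm1 2.66-fold (2.49 to 2.85) above tumour 1. Igtp (also called Irgm3) was at 107, 238 and 119 CPM, and Ifi47 was highest in tumour 3 at 136 CPM. Gbp7 was at 127, 198 and 196 CPM, so that tumours 2 and 3 were close to a tie (fold interval 0.963 to 1.06). Outside the members, Gbp4, Gbp6 and Gbp9 were highest in tumour 2, Gbp5 in tumour 1 and Gbp8 in tumour 3. Macrophage markers were also highest in tumour 2, and their part in these values was not tested. Without tumour 2 the mean of Gbp2 was 466 CPM.

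The other members included the steadiest gene of the set. Trim30a, a TRIM protein of mice that restrains NF-κB signalling (ENSMUSG00000030921.17, chromosome 7, 104409025 to 104465193), was at 134, 132 and 135 CPM in tumours 1, 2 and 3 (134 ± 1.26). Sp100, a scaffold of PML nuclear bodies, was at 187, 181 and 335 CPM (235 ± 87.3), and tumour 3 stood apart. Xaf1, an antagonist of XIAP, lay between 99.3 and 130 CPM, Ifi27 between 84.9 and 133 CPM, and Ifi35 between 51.5 and 92.4 CPM.

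The tumours did not share 1 order over the members. Of the 40 members, 14 were highest in tumour 1, 13 in tumour 2 and 13 in tumour 3, while 35.8%, 30.8% and 33.4% of all genes were. At least 2-fold higher in tumour 1 than in both others were 5 members (4.52% of all genes): Ifitm3, Oasl1, Oas2, Usp18 and Oasl2. Another 5 were at least 2-fold higher in tumour 2 than in both others (2.80% of all genes): Ifit1, Ifih1, Gbp2, Igtp and Oas1a. Igtp, close to the threshold against tumour 3 (fold interval 1.90 to 2.11), was no longer among them with DESeq2 size factors, total counts or no filter on low counts, and Oas1a not with total counts. None was so in tumour 3 (4.05% of all genes). In tumour 1, Isg15, Zbp1 and Irgm1 were at least 2-fold lower than in both others (5.41% of all genes), in tumour 3 Mx2, Ifitm3 and Oas2 were (3.28%), and in tumour 2 no member was (2.87%).

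Counted by pairs, 5 members were at least 2-fold higher in tumour 1 than in tumour 2 (9.33% of all genes) and 8 the other way (9.60%). Against tumour 3, 9 were higher in tumour 1 (10.5% of all genes) and 3 lower (10.9%). Between tumours 2 and 3, 8 were higher in tumour 2 (8.29% of all genes) and none in tumour 3 (8.35%). In all, 17 of 40 members (42.5%) differed by at least 2-fold between the highest and the lowest tumour, against 34.1% of all genes. The median log2 ratio of the members was 0.06 for tumour 2 over tumour 1, 0.08 for tumour 3 over tumour 1 and -0.26 for tumour 3 over tumour 2, and that of all genes lay within 0.03 of 0 in each. These ratios share libraries and are a description with no test. T cell, NK cell and neutrophil markers were in sum highest in tumour 3. No member was at least 2-fold above both other tumours there (4.05% of all genes), and the part of these cells was not tested.

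**Figure D3:**
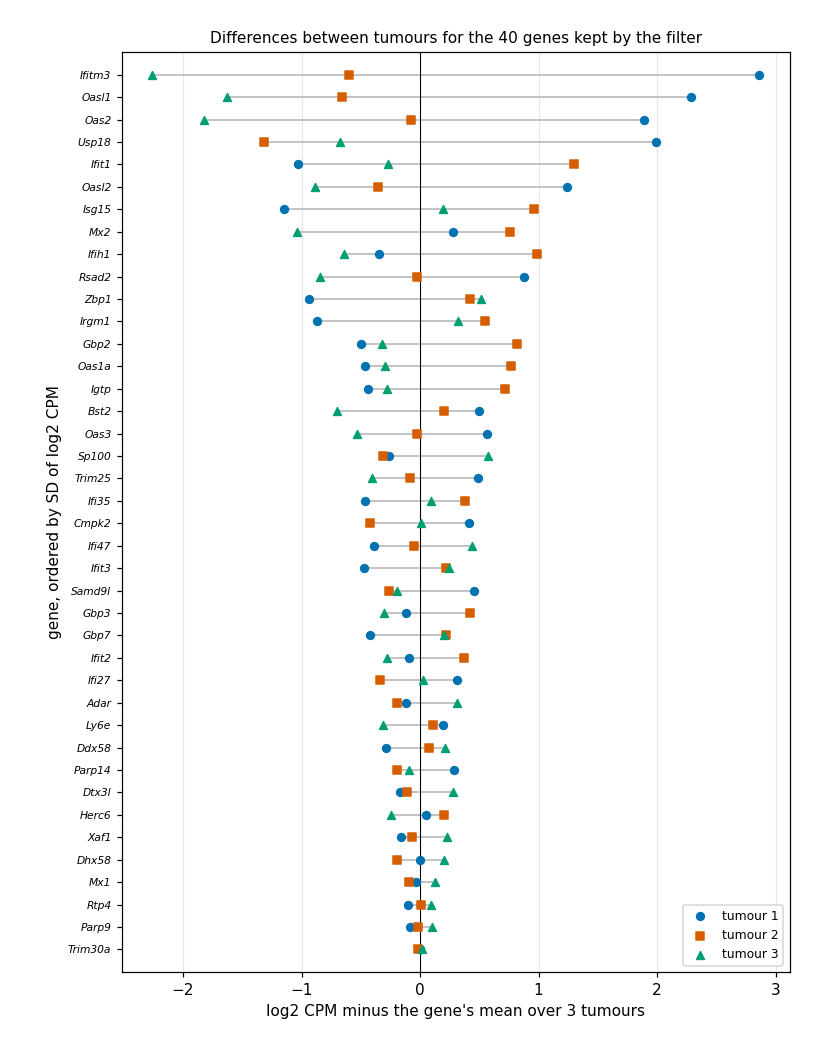
Log2 CPM of each tumour minus the gene's mean over 3 tumours (x axis) for the 40 members that passed the filter, ordered by SD of log2 CPM (y axis), with 1 point per tumour. Tumour 1 lies far to the right for Ifitm3, Oasl1, Oas2 and Usp18, tumour 2 for Ifit1, Isg15 and Ifih1, and the points of Trim30a coincide.

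The members' spread was close to that of other genes. Between tumours, log2 CPM had a median SD of 0.42 for the members and 0.39 for all genes, with 24 members above and 16 below the median of all genes. Steady members were found at high and at low levels: Trim30a, Parp9 and Rtp4 varied little, and so did Mx1 at about 4 CPM. The wide ones were mostly of low to moderate mean level, since Ifitm3, Oasl1, Usp18 and Oas2 had means of 14.6 to 44.2 CPM.

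**Figure D4:**
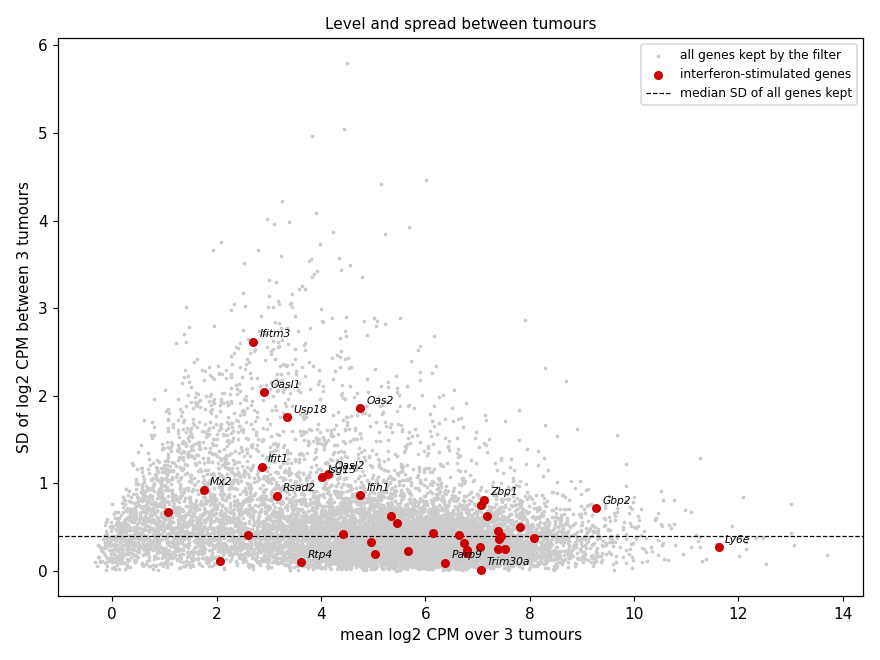
SD of log2 CPM between the 3 tumours (y axis) against mean level (x axis, mean log2 CPM), for members and for all genes that passed the filter. Ifitm3, Oasl1, Usp18 and Oas2 lie at the top at moderate levels, and Trim30a lies near 0.

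Levels of different genes can be compared only per length, as RPKM (CPM per kilobase of the union of annotated exons in GENCODE M21). Ly6e led with 848 ± 151 RPKM (SD, n = 3), and Gbp2 followed with 268 ± 144 RPKM. Gbp3 at 84.4 ± 22.9, Igtp at 76.5 ± 35.9 and Ifi27 at 74.3 ± 16.3 RPKM came next, and these 3 differed by less than their spread. At the other end, above Ifi44, stood Mx2 at 1.02 ± 0.565, Mx1 at 1.08 ± 0.0891 and Oas1a at 1.13 ± 0.599 RPKM, which also lay within their spread.

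Most receptor and kinase genes upstream of the members were transcribed in every tumour, and most ligand genes had no count. Of 16 listed interferon genes in the tables, 13 had no count in any tumour, Ifnk had 1, 4 and 2 counts and Ifnl3 1, 0 and 0. Ifng, the ligand of T and NK cells, had 3, 11 and 73 counts (0.199, 0.674 and 4.11 CPM) in tumours 1, 2 and 3, and was highest in the tumour with the highest T cell markers. In that tumour 13 of 40 members were highest (33.4% of all genes), and none was at least 2-fold above both others (4.05% of all genes). The part of Ifng in the members' values was not tested. Of the receptor subunits, Ifnlr1 had no count, and Ifnar1 was at 57.9, 36.6 and 80.1 CPM, Ifnar2 at 33.1, 20.8 and 27.8 CPM, Ifngr1 at 36.9, 38.9 and 55.7 CPM and Ifngr2 at 32.1, 40.6 and 38.9 CPM. Irf9, itself interferon-inducible, was at 102, 84.7 and 96.7 CPM (94.4 ± 8.86). Irf9 was highest in tumour 1, as were Oas2, Oasl1 and Ifitm3, but over a range of only 1.20-fold. Stat2 was at 114, 112 and 78.3 CPM, close in tumours 1 and 2 and lowest in tumour 3, where Oas2, Oasl1 and Ifitm3 were also lowest. The part of Irf9 and Stat2 in the members' values was not tested.

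Among the genes of sensing and induction, Irf7, which amplifies IFN-α transcription, was at 59.8, 24.3 and 24.7 CPM and Sting1, the adaptor of cytosolic DNA sensing, at 284, 110 and 131 CPM in tumours 1, 2 and 3. Both were highest in tumour 1, as were 14 of 40 members (35.8% of all genes), among them Usp18, Oas2 and Ifitm3. Isg15, Zbp1 and Irgm1 were lowest there, and a link to Irf7 or Sting1 was not tested. Cgas, the DNA sensor upstream of Sting1, had 83, 6 and 69 counts. Tlr3, the endosomal double-stranded RNA receptor, had 2, 165 and 236 counts, and Tlr9, the receptor of unmethylated CpG DNA, was at 86.5, 127 and 234 CPM. Both were lowest in tumour 1. Of the feedback inhibitors, Socs1 was at 24.9, 30.5 and 22.4 CPM and Socs3 at 6.83, 21.9 and 50.3 CPM.

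**Figure D5:**
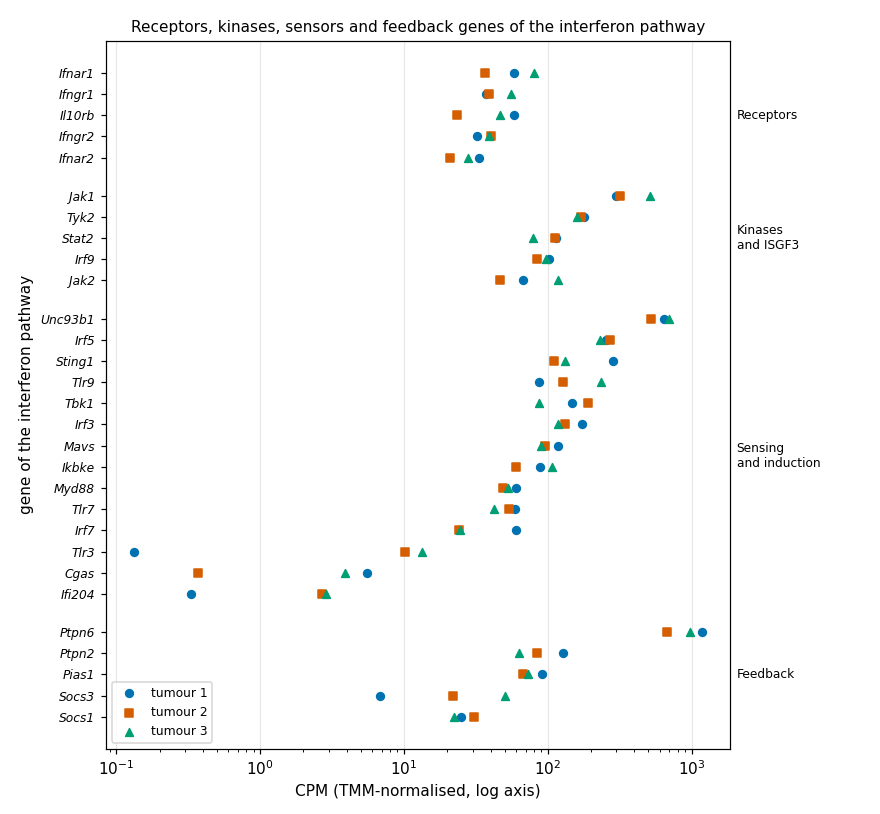
Levels of interferon pathway genes outside the members in each tumour (CPM on a log scale), 1 point per tumour, grouped into receptors, kinases with ISGF3, sensing and feedback. Tyk2 and Irf9 have close points in all 3 tumours, and Tlr3 and Cgas have wide gaps.

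Among 49 further interferon-stimulated genes outside the members, 45 passed the filter. Of these 45, 44 were at 1 CPM or more and 33 at 10 CPM or more in every tumour. Of the 11273 genes that passed the filter, 10543 and 7723 were. Of the 45 that passed the filter, 18 differed by at least 2-fold between some pair of tumours (34.1% of all genes). At least 2-fold higher in tumour 2 than in tumour 1 were 8 (9.60% of all genes), and 5 the other way (9.33%). Between tumours 2 and 3, 7 were higher in tumour 2 (8.29%) and 2 in tumour 3 (8.35%). Tap1, the peptide transporter for MHC class I, was at 724, 681 and 576 CPM, and Nlrc5, its transactivator, at 403, 386 and 349 CPM. Ifit1bl1, which lies on chromosome 19 beside the Ifit members, was at 9.08, 53.9 and 36.0 CPM, lowest in tumour 1 like Ifit1. Irgm2, which overlaps Igtp by 162 bases on the same strand, was at 35.7, 76.9 and 56.4 CPM. Irf8, a B cell and myeloid factor induced by interferon-γ, was at 465, 79.0 and 221 CPM and had the reverse order of Gbp2 between tumours 1 and 2. Irf1 at 250, 348 and 346 CPM and Psmb8 at 295, 548 and 283 CPM had the order of Gbp2 there. Of the 45 genes that passed, 14, 25 and 6 were highest in tumours 1, 2 and 3 (35.8%, 30.8% and 33.4% of all genes).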

How the data were processed

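Per the labels, polyA RNA of sorted B220+GFP+ lymphoma cells was sequenced single-end in 3 libraries. The authors deposited unnormalised counts of reads for each gene. The submitters' processing notes name FastQC, STAR 2.5.2b, featureCounts 1.6.0 and mm10. Neither annotation release nor strand setting is stated there. Gene positions and exon lengths came from GENCODE M21, to which 37536 identifiers matched.

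The members, gene lists and rules were chosen with earlier results of these data known. Tumour numbers follow accession order and serve as names only. TMM factors (0.969, 0.990 and 1.04) came from edgeR 4.0.16 (R 4.3.3) after filterByExpr, which 11273 genes passed. CPM are TMM-normalised, and log2 CPM used a prior count of 2. With 1 group no test was made. DESeq2 1.42.0 gave alternative size factors. Fold intervals are exact conditional binomial intervals (95%). Counting, intervals and plots ran in Python 3.11.15 with SciPy 1.17.1, NumPy 2.4.6, matplotlib 3.10.9 and pandas 2.3.3. The rule for a 2-fold difference was checked on simulated counts that held counting error only.

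Per-tumour values were given for the 2 members of highest mean and the member of largest SD of log2 CPM in each role, from a mean of 1 CPM. Other members were given by range, or by values where they share a locus or pattern with those. Of the pathway lists, genes with a mean of 10 CPM or more could be named. Ifnk, Ifnl3, Ifng, Ifnlr1, Tlr3, Cgas, Ifitm1, Ifit3b, Oas1g, Parp12 and the dendritic cell marker Siglech were chosen once their values were known. The exact Poisson interval (95%) of a count of 100 runs from 81.4 to 122, and covers counting error only. A gene of the pathway lists is not reported here. Near copies, such as Gbp, Oas1 and Ifit3 genes, can share or lose reads. Alternatives covered normalisation, filter, fold threshold, prior count, gene length and leaving out each tumour.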

Additional observations from a re-analysis of the deposited data

How the results depend on the processing

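Across the normalisations, filters, fold thresholds, prior counts, length scaling and left-out tumours tried, 61 of 72 values that summarise the set kept their direction and moved by less than the limit set for each (1 SD, or 1.5 times for a count). With a 4-fold threshold, 3 members were higher in tumour 1 than in tumour 2 and 2 the other way, 5 were higher in tumour 1 than in tumour 3 and 0 the other way, and 0 were higher in tumour 2 than in tumour 3. With a 1.5-fold threshold, 10 were higher in tumour 1 than in tumour 2, 8 in tumour 3 than in tumour 1, 14 in tumour 2 than in tumour 3 and 2 the other way. The median log2 ratio of tumour 3 over tumour 1 turned from 0.0828 to -0.02305 with no filter on low counts. That setting adds Ifi44 (log2 ratio -1.06 in the main setting). It also changes the TMM factors, and the median ratio of all genes moved from -0.026 to -0.062. The part of each was not tested. The median level over all 41 members was 5.66 in log2 CPM and 4.10 in log2 RPKM, a change of unit. Leaving out each tumour gave 28 to 30 members at 10 CPM or more and 40 at 1 CPM or more. Dropping a tumour can only keep or raise such counts. From 28 and 40 of 41 members they could not pass 1.5 times, so these values, among the 61, were fixed in advance. The median level was 5.56 to 5.79 and the median SD 0.33 to 0.43 with a tumour left out. No paired analysis was possible because the labels give 1 group. Of 156 values of single genes, 137 moved by less than 1 SD between tumours, and the other 19 were in RPKM. With a tumour left out this was fixed in advance, since dropping 1 of 3 values cannot move a mean by 1 SD. A further 7 of the 137 set RPKM against CPM, a change of unit, so the tally is no measure of robustness. Leaving out a tumour moved 6 of 26 means by over 1.5 times. Without tumour 1 these were Ifitm3 (17.6 to 2.70 CPM), Oasl1 (14.6 to 3.49), Usp18 (17.0 to 5.15) and Oas2 (44.2 to 16.5), and without tumour 2 Ifit1 (9.07 to 4.68) and Ifih1 (30.5 to 19.2). Depth limits the members with counts under 100 in some tumour, such as Ifi44, Mx1, Mx2 and Oas1a in all 3.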
